A study of Homo sapiens with 2 samples.

Results

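The TRIM family genes were examined in H2228 cells without treatment and in H2228 cells given IL4. H2228 cells are a line grown from a human lung adenocarcinoma and hold the EML4-ALK fusion gene, and interleukin 4 (IL4) is a cytokine that signals through JAK kinases and STAT6. A gene was taken as a member when its symbol was TRIM followed by digits and at most 1 letter, when it was measured by a probe set that names no other gene, and when it was not a pseudogene. This gave 55 genes on 128 probe sets, among 19775 genes measured in all. RNA of each condition was hybridized to 1 Affymetrix Human Genome U133 Plus 2.0 array, with IL4 at 100 ng/mL for 30 min according to the series description. The sample labels also give, for both arrays, a transfection with EML4-ALK plasmids, siRNAs or negative controls lasting 48 h. Which of these the cells received, if any, is not given in the sources used here. With 1 array per condition there was no replicate and no test, so every difference below describes these 2 arrays and has no error between cultures.

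TRIM proteins share an N-terminal arrangement of a RING finger, B-boxes and a coiled coil. The RING finger makes most of them ubiquitin ligases, and the domain at the C-terminal end picks the partner protein. Many members act in antiviral defence and are themselves induced by interferons, whereas others regulate chromatin, the cytoskeleton or muscle protein turnover.

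The deposited values were on a log2 scale. Log2 differences were taken as IL4 minus untreated. Genes past 1.5-fold in either direction, which is 0.58 on the log2 scale, were counted, and a gene was called dim when its mean of both arrays lay below the median level of all probe sets, 5.03. Values of different genes come from different probes and were not set against each other. The cell line was checked by marker genes. All 10 measured epithelial markers were at or above the median level, whereas only 1 of 4 leukocyte markers (CD3E), 1 of 5 fibroblast markers (COL1A1) and 1 of 3 endothelial markers (PECAM1) were. Among the epithelial markers, CDH1 had a log2 difference of 0.75 and NKX2-1, a lung lineage factor, of -0.97, and their part in the TRIM differences was not tested.

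Of the 55 TRIM genes, 4 were at least 1.5-fold lower with IL4 (TRIM6, TRIM59, TRIM2 and TRIM5) and 3 were at least 1.5-fold higher (TRIM8, TRIM21 and TRIM47). Over all genes, 4.39% were lower and 3.21% were higher by the same level, against 7.27% and 5.45% of the TRIM genes. At 2-fold, TRIM6 and TRIM59 were lower and 0 TRIM genes were higher, where 0.89% of all genes were lower and 1.11% were higher. All 7 genes were above the median level. Of the 39 TRIM genes there, 10.3% were lower and 7.69% higher, against 5.88% and 4.34% of all genes at that level. With so few genes on either side, these shares give no result about the family as a whole. The median log2 difference was 0.068 over the TRIM genes and 0 over all genes, and the middle of the family lay between -0.16 and 0.24 (quartiles), close to the -0.18 and 0.15 of all genes. Of the members, 32 had differences of at most 0.25 in size.

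**Figure D1:**
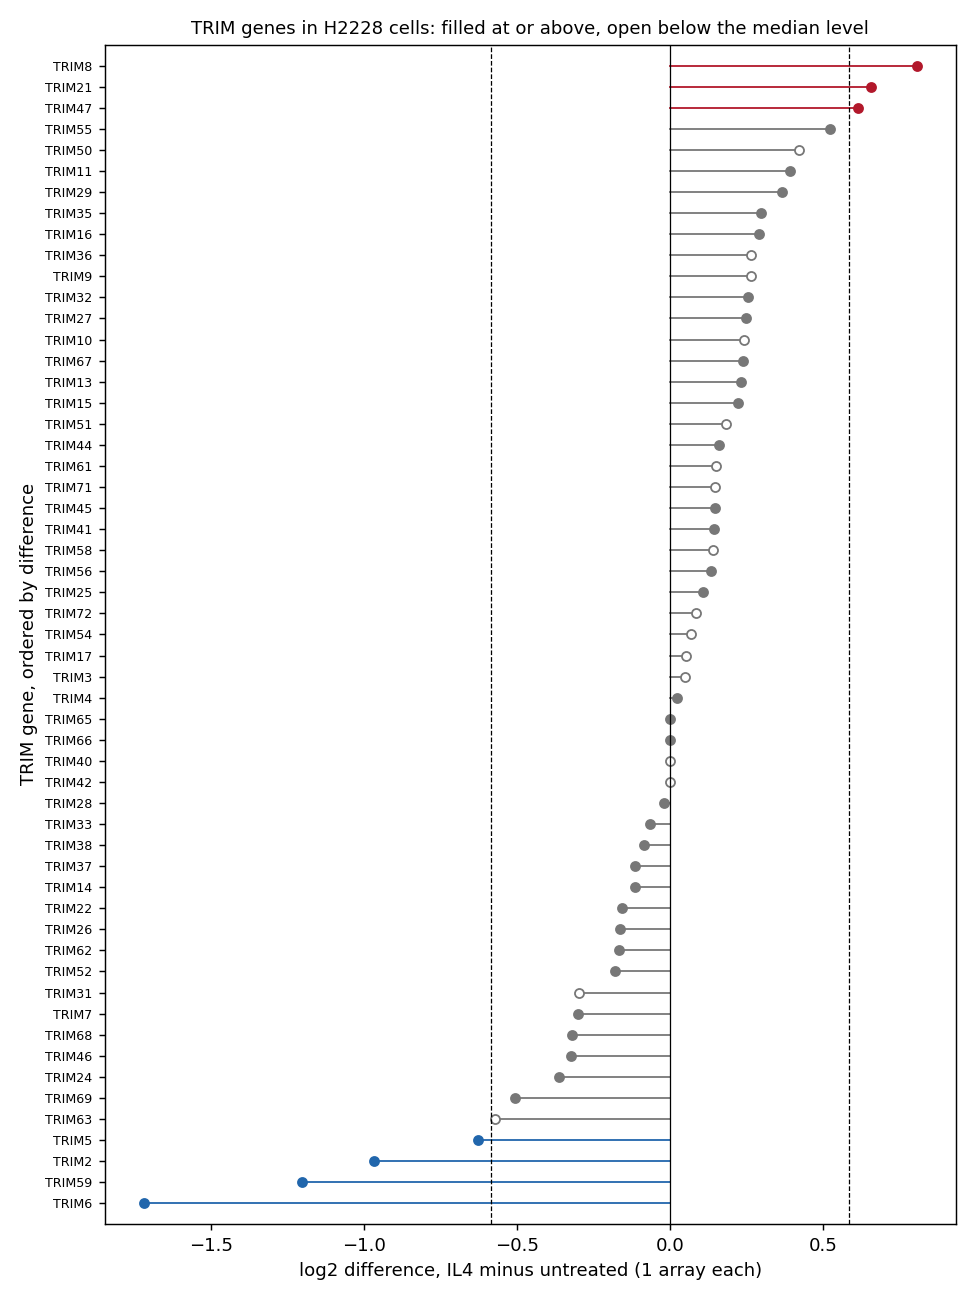
Log2 difference, IL4 minus untreated (x axis), for the 55 TRIM genes (rows, ordered by the difference), 1 array per condition. Filled points are genes at or above the median level of all probe sets and open points dim genes, dashed lines mark 1.5-fold, and the ends of the order are TRIM6 at -1.72 and TRIM8 at 0.81.

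**Figure D2:**
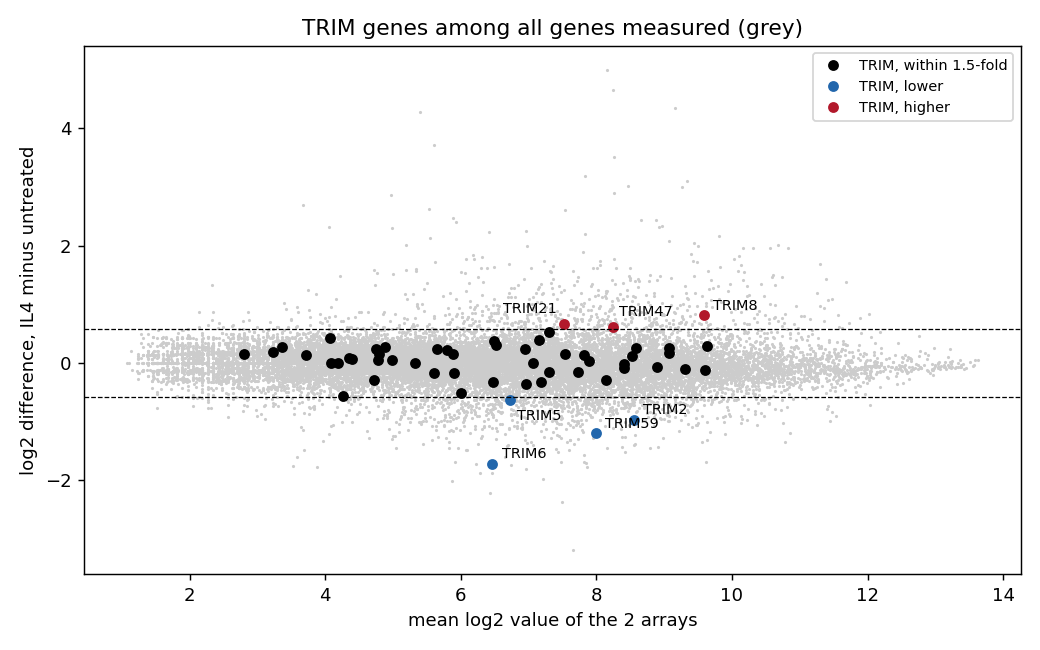
Log2 difference (y axis) against the mean log2 value of both arrays (x axis) for 19775 genes in grey and the TRIM genes in colour, with dashed lines at 1.5-fold. The 7 labelled TRIM genes lie past 1.5-fold and the other TRIM genes lie inside the band, as most grey points do.

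TRIM6 had the lowest log2 difference of the family. TRIM6 builds free ubiquitin chains that activate the kinase IKK epsilon in type I interferon signalling. Its log2 value was 7.33 in untreated cells and 5.61 with IL4, a 3.29-fold lower level with both values above the median level. This rested on a single probe set. A separate probe set that names TRIM34 and the TRIM6-TRIM34 readthrough transcript was also lower by 1.86-fold, at 6.43 without and 5.54 with IL4. A second probe set of the same description was dim and had a difference of -0.35.

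TRIM59, a RING ligase anchored in membranes, had a log2 value of 8.59 in untreated cells and 7.39 with IL4 and was 2.30-fold lower. A further probe set that names TRIM59 together with IFT80 was 1.87-fold lower, at 8.26 and 7.36. IFT80, a component of the transport machinery of cilia, had on its own probe sets above the median level log2 differences of -0.50 and -0.65. Because the shared probe set names both genes, it cannot be told apart which of them it followed.

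TRIM2, a ligase of neurons that binds the neurofilament light chain, was 1.95-fold lower, at 9.04 in untreated cells and 8.08 with IL4. It was the only one of the 4 lower genes with several probe sets above the median level. All 3 of these agreed in direction, with log2 differences of -0.97, -0.90 and -0.84, and the 3 dim ones had -0.10, 0.18 and -0.53. The 3 bright probe sets are all of a kind that can bind several transcripts, and without that kind TRIM2 was represented by a dim probe set at 0.18.

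TRIM5, which restricts retroviruses by binding their capsid, lay just past the level. Its log2 value was 7.04 in untreated cells and 6.41 with IL4, a 1.55-fold difference. Its other probe set was dim, at 2.97 and 2.93, and showed almost no difference. Averaged over both probe sets the log2 difference of TRIM5 was -0.33.

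Among the higher genes, TRIM8 had the largest difference. TRIM8 promotes NF-kB signalling through the kinase TAK1 and is known to bind SOCS1, a feedback inhibitor of JAK kinases. Its log2 value was 9.18 in untreated cells and 9.98 with IL4, a 1.75-fold difference. Its 5 probe sets were all at or above the median level but did not move together. Beside the chosen one at 0.81, a pair of them had log2 differences of 0.82 and 0.65, and the remaining pair had 0.12 and -0.18, so that the average over the probe sets was 0.44.

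TRIM21, an antibody receptor inside the cell, was 1.58-fold higher, at 7.20 in untreated cells and 7.85 with IL4. TRIM47 was 1.53-fold higher, at 7.94 and 8.56. Each of these genes was measured by 1 probe set, so no further probe set shows how far the value depends on its probes. Both differences lie close to the level of 1.5-fold.

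Just inside that level were TRIM63 at -0.57, TRIM55 at 0.52 and TRIM69 at -0.51. TRIM63, a ligase of muscle protein breakdown, was dim on both arrays, at 4.55 and 3.98. TRIM55, a relative of TRIM63 at the muscle sarcomere, was well above the median level in these lung cancer cells, at 7.03 in untreated cells and 7.55 with IL4, and its second probe set gave 0.44. TRIM69 had a second bright probe set of the opposite sign, at 0.33.

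**Figure D3:**
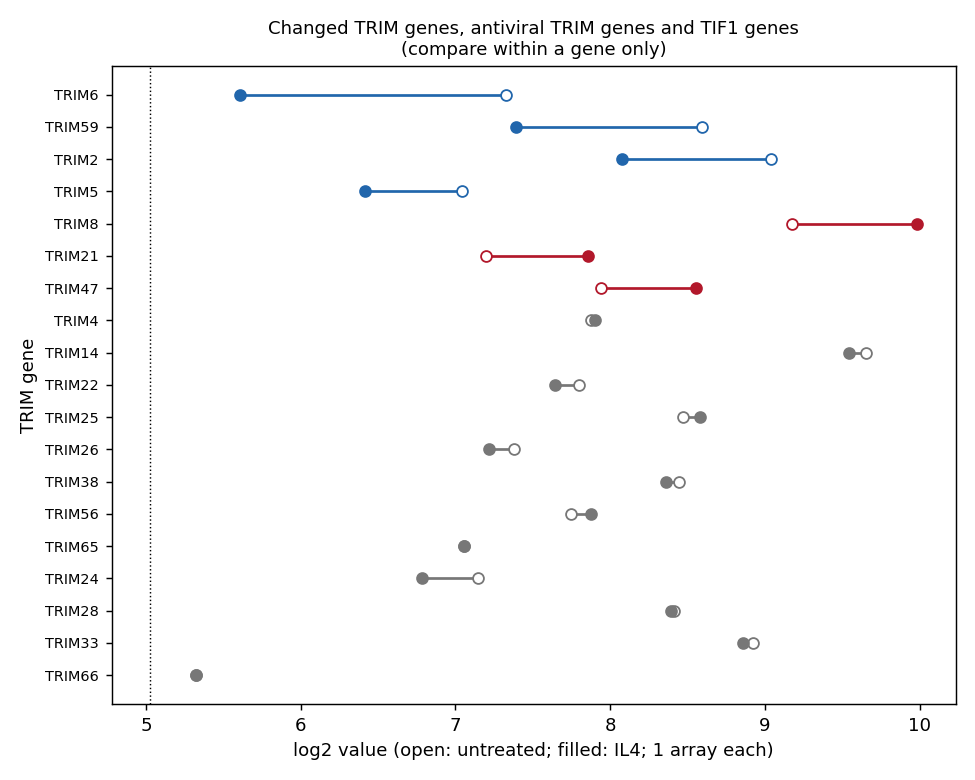
Log2 values (x axis) without IL4 (open circles) and under IL4 (filled circles) for the 7 TRIM genes past 1.5-fold (blue lower, red higher), the other antiviral members and the TIF1 genes (rows), to be compared within a gene only. TRIM6 lies at 7.33 and 5.61, whereas the 2 values of TRIM25 differ by 0.11, and the dotted line is the median level.

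Of 12 TRIM genes with roles in antiviral and innate immunity, 11 had a probe set naming no other gene, all at or above the median level. The remaining gene, TRIM34, is left out of the counts and the median below. Its bright probe set, which also names the TRIM6-TRIM34 readthrough transcript, had -0.89. Of the 11 genes, TRIM6 and TRIM5 were lower and TRIM21 was higher, and the other 8 had log2 differences between -0.16 and 0.13. Among all genes at that level, 5.88% were lower and 4.34% were higher. Counts this small do not set the list apart from other genes. TRIM25 and TRIM4, which ubiquitinate the RNA sensor RIG-I, had log2 differences of 0.11 and 0.025. TRIM65, which acts on the related sensor MDA5, had the same deposited value of 7.06 on both arrays. TRIM14, an adaptor at MAVS without a RING finger, had -0.11, and TRIM56, which acts in DNA sensing through STING, had 0.13. TRIM22, an interferon-induced antiviral ligase, had -0.16, TRIM26, which regulates interferon beta induction, also had -0.16, and TRIM38, which limits Toll-like receptor signalling, had -0.085. The median of the 11 genes was -0.085, against -0.028 over all genes at or above the median level. That median is the value of TRIM38, whose other bright probe sets had -0.20, -0.24 and -0.19. For TRIM4, TRIM14 and TRIM56 another bright probe set had the opposite sign, at -0.18, 0.15 and -0.19. The remaining bright probe sets of TRIM14 had -0.015 and -0.35.

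The TIF1 genes encode chromatin regulators with a PHD finger and a bromodomain, and all 4 stayed within 1.5-fold. TRIM24, a reader of histone H3 and a ligase for p53, had the largest difference among them, -0.36. Its log2 values were 7.15 in untreated cells and 6.78 with IL4, and its second bright probe set gave -0.38. Both are of the kind that can bind several transcripts. Without that kind TRIM24 was represented by a dim probe set at 0.18, and a further dim one had -0.26. TRIM28, the corepressor of KRAB zinc finger proteins, was at 8.41 and 8.40. TRIM33, a regulator of SMAD4, was at 8.92 and 8.86. TRIM66 had the same value of 5.33 on both arrays.

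By the C-terminal domain, the 7 genes past 1.5-fold were spread over 4 of the 6 classes. Over all genes, 3.21% were higher and 4.39% lower, with a median of 0, and counts this small give no result about a class. Of 27 measured genes with a PRY-SPRY domain, 2 were higher and 2 lower, and the median was 0.087. Of 5 genes with NHL repeats or, in TRIM45, a filamin-type domain, TRIM2 was lower, and TRIM32, a ligase mutated in a limb-girdle muscular dystrophy, had the next largest difference at 0.26, with a second bright probe set at -0.01. Of 3 genes with a MATH domain or a transmembrane segment, TRIM59 was lower, TRIM13, a ligase of the endoplasmic reticulum, was at 0.23 and TRIM37, a centrosome regulator, at -0.11 with a second bright probe set at 0.14. Of 8 genes without a further domain, TRIM8 was higher, and TRIM29, an epithelial member without a RING finger, was at 0.37. In that gene the other bright probe sets had 0.32 and -0.01. Of 8 genes with a COS box, which binds microtubules, 0 passed 1.5-fold, and their median was 0.15. Only 3 of these 8 genes were at or above the median level. Among the PRY-SPRY genes, TRIM7, which binds glycogenin, and TRIM15, found at focal adhesions, had bright probe sets of opposite sign, at -0.30 and 0.21 and at 0.22 and -0.25.

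In all, 31 TRIM genes had a positive difference, 20 a negative one and 4 had identical deposited values on both arrays (TRIM40, TRIM42, TRIM65 and TRIM66). A negative difference was found for 48.1% of all genes and for 53.1% of those at or above the median level. Whether the family departs from these shares was not tested. Identical values were found for 7.27% of the members and for 6.45% of all genes. Of all genes past 1.5-fold, 562 of the 635 higher and 762 of the 868 lower ones were at or above the median level. The 16 dim TRIM genes had differences from -0.57 to 0.42 on the probe sets that stand for them. All were inside 1.5-fold, which does not set them apart from other dim genes. They were TRIM3, TRIM9, TRIM10, TRIM17, TRIM31, TRIM36, TRIM40, TRIM42, TRIM50, TRIM51, TRIM54, TRIM58, TRIM61, TRIM63, TRIM71 and TRIM72. Of these, TRIM31 and TRIM36 had a further dim probe set past 1.5-fold, at -1.18 and 1.16. Averaged over its 3 probe sets, TRIM31 was past 1.5-fold at -0.62, and TRIM63 was past it at -0.60 after a loess correction or quantile normalization. The bright genes not described above lay between -0.32 (TRIM46 and TRIM68) and 0.39 (TRIM11).

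The agreement of probe sets gives the only measure of error within these arrays. For 24 TRIM genes with at least 2 probe sets above the median level, the gap between the log2 differences of the brightest pair had a standard deviation of 0.28, against 0.25 over 6056 genes of all kinds. The brightest pair had the same sign in 13 of the 24 genes, or 54.2%, and in 75.6% of all genes, and TRIM13 and TRIM66 had a difference of 0 on 1 of the pair. The largest gap among the 24 was 0.83, in TRIM69, which is larger than the differences of TRIM8, TRIM21, TRIM47 and TRIM5. Over the 6056 genes the largest gap was 2.30, larger than the difference of any TRIM gene. TRIM6, TRIM59, TRIM5, TRIM21 and TRIM47 had no such pair. Only the brightest pair was compared, and the bright probe sets of TRIM8 ran from -0.18 to 0.82. Such gaps cover probes and not cultures.

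**Figure D4:**
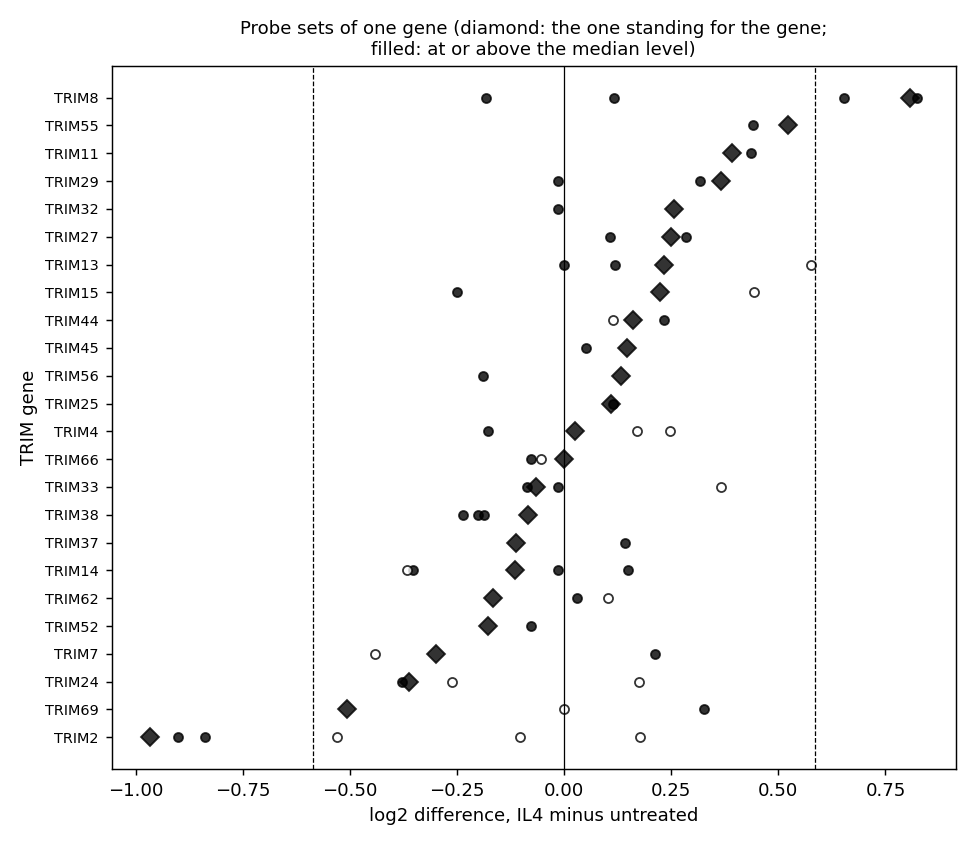
Log2 difference (x axis) of each probe set of the 24 TRIM genes (rows) with at least 2 probe sets at or above the median level. Diamonds are the probe sets that stand for the gene, filled points are at or above the median level, and dashed lines mark 1.5-fold; the 3 bright probe sets of TRIM2 lie together on the left, whereas those of TRIM8 run from -0.18 to 0.82.

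Several TRIM genes lie next to each other in the genome, and neighbours did not share a direction throughout. On chromosome 11, the RefSeq annotation (GRCh38.p14) places TRIM6 and TRIM34 within the interval of TRIM5, with TRIM22 beside them. In this order TRIM5, TRIM6 and TRIM22 had log2 differences of -0.63, -1.72 and -0.16, and the probe set for TRIM34 and its readthrough transcript had -0.89. TRIM21 and TRIM68, a coactivator of the androgen receptor, come before them on the same chromosome arm and had 0.66 and -0.32. TRIM47 and TRIM65 are the nearest TRIM neighbours of each other on chromosome 17 and had 0.61 and 0. On chromosome 6, TRIM38, TRIM27, TRIM31, TRIM40, TRIM10, TRIM15 and TRIM26 lay between -0.30 and 0.25.

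Promoters were examined for 4 motifs in the RefSeq sequences of 250 bases before to 50 bases after the first start listed for each gene. A sequence was given for 43 of the 55 genes, and those without an entry were TRIM4, TRIM8, TRIM11, TRIM13, TRIM22, TRIM24, TRIM27, TRIM28, TRIM29, TRIM35, TRIM45 and TRIM55. The core of the interferon response element, searched on either strand as GAAA, any 2 bases and GAAA again, was found in 8 of the 43 TRIM promoters (18.6%) and in 3.65% of 27305 promoters of all genes. The promoters of all genes include some of genes not measured here and were not chosen by level. This core can overlap itself. Interferon regulatory factors are known to bind this element. Its 8 windows are shown because they join members that were lower (TRIM2 and TRIM5), higher (TRIM21) and within 1.5-fold. Capitals mark the match, with 10 bases on each side, written 5′ to 3′ along the gene in build GRCh38.p14.
TRIM2 (chr4:153151936-153151965, plus strand, log2 difference -0.97): aataaatagaGAAAAGGAAAtaagccgaag
TRIM5 (chr11:5685082-5685111, minus strand, log2 difference -0.63): atagtttatcTTTCACTTTCctgccctgag
TRIM69 (chr15:44736456-44736485, plus strand, log2 difference -0.51): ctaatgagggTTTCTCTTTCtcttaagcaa
TRIM26 (chr6:30213575-30213610, minus strand, log2 difference -0.16): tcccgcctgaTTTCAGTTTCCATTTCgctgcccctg
TRIM14 (chr9:98119229-98119258, minus strand, log2 difference -0.11): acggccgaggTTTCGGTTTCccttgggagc
TRIM44 (chr11:35662730-35662759, plus strand, log2 difference 0.16): tcctgacgggGAAAGGGAAAgtggaaccgg
TRIM16 (chr17:15683012-15683041, minus strand, log2 difference 0.29): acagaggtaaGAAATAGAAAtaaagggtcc
TRIM21 (chr11:4393660-4393695, minus strand, log2 difference 0.66): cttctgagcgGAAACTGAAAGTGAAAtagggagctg
These 8 genes had a median log2 difference of -0.14, with 3 positive and 5 negative, and the 35 genes with a promoter and without the match had a median of 0.052, with 19 positive and 12 negative. All 8 were above the median level, against 19 of the 35, and the part of level in this was not tested. In TRIM21 and TRIM26 there were 2 overlapping matches, and in TRIM21 they lay after the start, 17 bases into the transcript.

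The site preferred by STAT6, TTC and GAA with any 4 bases between, was found in 4 of the 43 TRIM promoters (9.30%), those of TRIM15, TRIM42, TRIM46 and TRIM66, and in 6.37% of all promoters. The shorter site of other STAT proteins, with 3 bases between, was in 5 (11.6%, against 7.88%), with TRIM2 as the only one past 1.5-fold. The NF-kB consensus was in 2 (4.65%, against 10.8%), TRIM14 and TRIM31. Both sites of the STAT proteins read the same on either strand. The promoters of TRIM6 and TRIM21 are printed whole as the largest difference with a promoter entry in each direction. Capitals mark every match of the 4 motifs, and TRIM6 had none in this window.
TRIM6 promoter (chr11:5596387-5596686, plus strand): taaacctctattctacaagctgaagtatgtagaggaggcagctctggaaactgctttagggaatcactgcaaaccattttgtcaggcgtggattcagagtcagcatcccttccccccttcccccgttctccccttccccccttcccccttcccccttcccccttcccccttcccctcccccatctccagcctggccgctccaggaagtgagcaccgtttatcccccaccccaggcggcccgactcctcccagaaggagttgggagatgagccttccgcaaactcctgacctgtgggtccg
TRIM21 promoter (chr11:4393653-4393952, minus strand): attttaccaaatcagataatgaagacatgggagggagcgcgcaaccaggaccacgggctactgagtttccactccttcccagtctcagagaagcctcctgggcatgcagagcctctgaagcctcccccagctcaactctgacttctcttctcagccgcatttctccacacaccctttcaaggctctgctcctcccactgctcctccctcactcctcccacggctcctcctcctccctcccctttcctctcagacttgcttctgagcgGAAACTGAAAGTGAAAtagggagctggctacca

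Genes related to the TRIM family and its partners were described by lists. Of 10 genes that share TRIM domains under another name, among them PML, MID1, MID2 and RNF135, 0 passed 1.5-fold, and the largest differences were in BSPRY at -0.41 and RNF135, a ligase for RIG-I, at -0.35. Of 7 measured ubiquitin-conjugating enzymes, which pass ubiquitin to RING ligases, 0 passed it, with UBE2E2 at 0.43 and UBE2E3 at -0.37. Of 21 genes of RNA and DNA sensing, 20 of them above the median level, 2 were higher and 1 was lower, where 4.34% and 5.88% of all genes at that level were. These counts are too small to set the list apart from other genes. TRAF3, an adaptor of MAVS signalling, was 1.87-fold higher, at 8.15 and 9.06, and TICAM1, the adaptor of TLR3, was 1.78-fold higher, at 6.23 and 7.06. TLR3 itself, a receptor of double-stranded RNA, was 1.72-fold lower, at 6.54 and 5.75.

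Of 12 chromatin partners of TRIM28, 1 was lower and 0 were higher. The lower gene was MPHOSPH8, a subunit of the HUSH silencing complex, 1.52-fold lower at 7.03 without and 6.43 with IL4. All 12 were above the median level, where 5.88% of all genes were lower and 4.34% were higher. Of the 12 genes, 10 had a negative difference, and their median was -0.32. Of all genes at or above the 75th percentile, where 11 of the 12 lay, 58.2% had a negative difference, with a median of -0.061. These values describe the list and were not tested. Of 7 measured hormone receptor and SMAD partners of TRIM24 and TRIM33, SMAD3 was 1.53-fold higher, at 8.89 and 9.50, and 0 were lower.

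**Figure D5:**
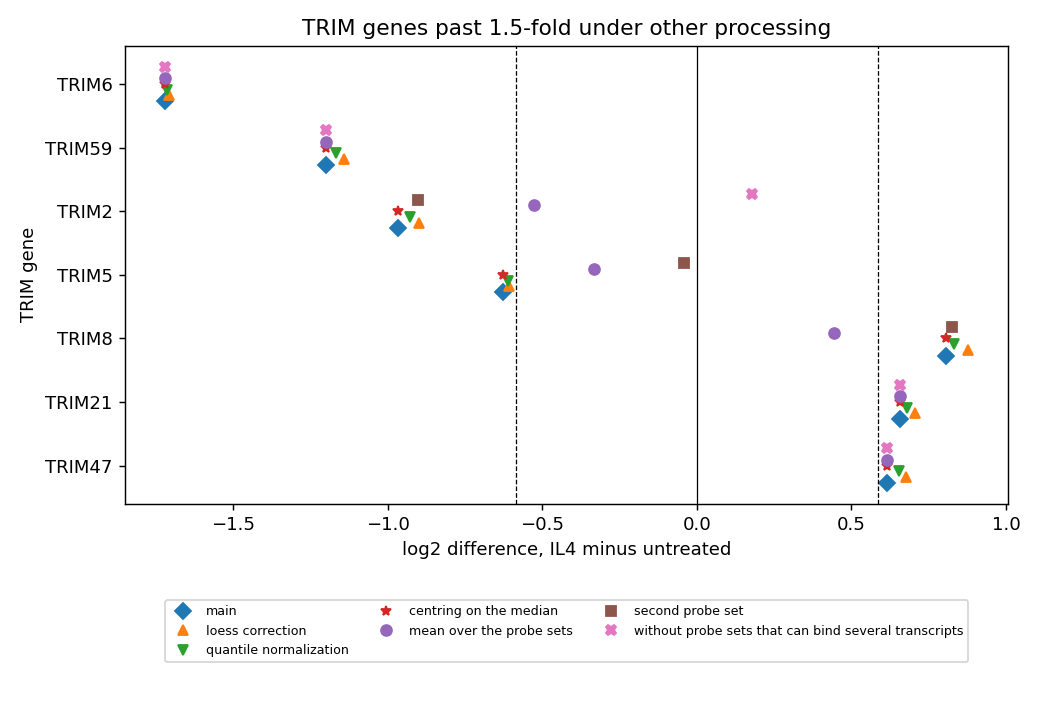
Log2 difference (x axis) of the 7 TRIM genes past 1.5-fold (rows) as reported and under 6 other ways of processing (symbols), with dashed lines at 1.5-fold. TRIM6, TRIM59, TRIM21 and TRIM47 keep their side, but only the loess correction and quantile normalization could move them. TRIM2 and TRIM5 move towards 0 with other probe sets, TRIM2 to 0.18, and TRIM8 lies at 0.44 as an average over its probe sets.

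A further 9 TRIM genes were reached only by probe sets that name several genes (TRIM34, TRIM39, TRIM43, TRIM43B, TRIM48, TRIM49, TRIM49C, TRIM73 and TRIM74). Among their probe sets, the one for TRIM34 described above was past 1.5-fold. The bright ones for TRIM39 had log2 differences of -0.19 and 0.22, and the bright one for TRIM73 and TRIM74 had 0.067. TRIM23, TRIM49B, TRIM51G, TRIM60, TRIM64, TRIM64B, TRIM64C, TRIM75 and TRIM77 were not analysed here.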

How the data were processed

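RNA from 1 culture of untreated and 1 of IL4-treated H2228 cells was measured on Affymetrix Human Genome U133 Plus 2.0 arrays. The authors deposited 1 log2 value for each probe set and array. RMA, with no version, is named in the submitters' notes on processing, and the genome build is not given in the sources used here. The authors' paper names other software for the raw data, the Affymetrix GeneChip Operating Software. How both descriptions relate is not given there. RMA equalizes the arrays, and under it differences are relative to the bulk of probe sets.

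Probe sets were named by the array annotation, and all 128 probe sets of the members were updated to RefSeq symbols by gene number. TRIM16L, annotated as a pseudogene, was left out with its 2 probe sets. Each gene was represented by its brightest probe set (mean of both arrays). No test was possible with 1 array per condition, and the number of arrays limits the precision. Named were genes past 1.5-fold, antiviral and TIF1 members, the 2 largest differences of each domain class, and genes whose bright probe sets differed in sign by over 0.25. The members and lists were chosen with earlier results of these data known. Motifs and sequences were chosen after the values were seen. Gene choice and counting were tested on simulated data in which every planted change was at least 2-fold and shared by all probe sets of a gene. That checks the counting and not the differences near 1.5-fold. Python 3.11.15, pandas 2.3.3, numpy 2.4.6, scipy 1.17.1, statsmodels 0.14.6 (loess fraction 0.3) and matplotlib 3.10.9 were used.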

Additional observations from a re-analysis of the deposited data

How the results depend on the processing

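The count of 4 lower genes among 55, against 4.39% of all genes, was 2 at a 2-fold level, against 0.89%. It was 2 of 27 genes with a floor at the 75th percentile of all probe sets, against 6.45% of all genes there. TRIM6 and TRIM5 lay below that floor. With the second probe set of each gene it was 1 of 36 genes, against 3.91%. After leaving out probe sets able to bind more than 1 transcript (suffixes _s_at, _x_at and _a_at), it was 2 of 47 genes, against 4.45%. The count of 3 higher genes was 0 at 2-fold, where 1.11% of all genes were higher. Both counts were otherwise within 1.5 times, namely 3 to 5 lower and 2 to 3 higher, but not always of the same genes. As means over probe sets, the lower genes were TRIM6, TRIM59 and TRIM31 (-0.62, dim) and the higher ones TRIM21 and TRIM47, and with second probe sets the higher genes were TRIM8 (0.82) and TRIM36 (1.16, dim). With floors at the median level and the 75th percentile, the median of 0.068 was 0 and 0.025, against -0.028 and -0.061 over all genes. It was 0.040 with second probe sets and 0.15 after leaving out probe sets of those suffixes, where the median over all genes was 0. TRIM2 turned to 0.18 under the last of these, where a dim probe set took its place, and was -0.53 as a mean over its probe sets. TRIM5 was -0.33 and TRIM8 was 0.44 as means over probe sets, and TRIM5 was -0.041 with its second probe set, which is dim. TRIM5 and TRIM8 have no probe set of another suffix and dropped out there. TRIM63 passed 1.5-fold with the loess correction (-0.60) and with quantile normalization (-0.60). TRIM6, TRIM59, TRIM21 and TRIM47 kept their side of 1.5-fold under all 5 alternatives that could be applied to them. Only the loess correction and quantile normalization could move them, however. As genes with 1 probe set of no such suffix, they were not touched by the choice of probe set. Centring subtracted a median of 0 and changed no value. For quantile normalization and the loess correction, the median over all genes was -0.024 and -0.014. Taking in probe sets of several genes and counting any bright probe set were chosen after seeing the data, and gave 5 and 4 lower genes and 3 higher genes in each case. No replicate could be left out. No paired analysis was possible because the result comes from no test.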
